A study of Homo sapiens with 8 samples.

Results

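RIMS1, RIMS2, RIMS3, CLSTN1, CLSTN2, CLSTN3, L1CAM, GAD1 and OLFM1 are 9 genes known mainly from neurons that were read by symbol in RNA-seq libraries of T47D cells, an established human breast cancer line of the luminal, hormone-receptor-positive type. They are 9 of the 28859 genes in the deposited table. The set was chosen by the normalized counts themselves, with earlier results of these same libraries known and partly for how its genes differed between groups. Their values are given below as a description, with differences and standard errors and no p-value. The cells carried a control plasmid, a plasmid for HA-tagged wild-type GATA3, or a plasmid for the HA-tagged truncated form TR1 or TR2, with 2 libraries in each of the 4 groups. GATA3 is a zinc-finger transcription factor of luminal breast epithelium. The labels do not describe where TR1 and TR2 end, whether the lines are clones or pools, or whether replicates were separate cultures. All 4 groups are the same cell line, and the counts do not separate GATA3 transcripts of the cell from those of a plasmid.

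RIM proteins are scaffolds of the presynaptic active zone. The long forms, from RIMS1 and RIMS2, hold vesicles near calcium channels by binding Rab3, Munc13 proteins and the channels themselves, and the short forms, from RIMS3 and RIMS4, keep only the C-terminal part. Calsyntenins, encoded by CLSTN1, CLSTN2 and CLSTN3, are membrane proteins with cadherin repeats. Calsyntenin-1 links cargo to kinesin light chain, and calsyntenin-3 acts in synapse formation. L1CAM is an immunoglobulin-family adhesion molecule of growing axons that many carcinomas also make. GAD1 encodes glutamate decarboxylase 67, which makes the transmitter GABA, and OLFM1 encodes the secreted glycoprotein noelin. Release machinery of this kind also serves hormone-secreting cells.

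The promoters of the members are shown first because GATA3 binds DNA at the letters GATA. The search used 14 RefSeq promoter windows (GRCh38.p14) of 8 of the 9 members, found by symbol. No window of RIMS2 was used, so the counts of member windows leave this gene out and its promoter was not tested. The 250 bases before each start were searched on both strands for GATA, which reads TATC from the other strand. A core was present in 6 of these 14 windows. Among all 35116 RefSeq windows of that length, with none left out by chromosome, 45.6% held one. With flanking bases required (the motif AGATAA, the motif AGATAG, the motif TGATAA or the motif TGATAG), 2 of the 14 windows matched, both of them overlapping windows of L1CAM that hold the same site, against 22.3% of all windows. RIMS1 had a core in each of its 3 windows, which are printed because this gene differed most between wild-type and TR1 libraries among the members with reads in every group. L1CAM and CLSTN1 are printed as the other searched members with a core, and CLSTN2 and GAD1 as members with large differences and no core in the window. The other window of CLSTN1 (chr1:9823966-9824215) held no core and is not printed. Each line runs 5′ to 3′ along the gene's strand and ends at the base before the start, and capitals mark GATA cores on either strand.
RIMS1, window a (chr6:71886300-71886549, plus strand): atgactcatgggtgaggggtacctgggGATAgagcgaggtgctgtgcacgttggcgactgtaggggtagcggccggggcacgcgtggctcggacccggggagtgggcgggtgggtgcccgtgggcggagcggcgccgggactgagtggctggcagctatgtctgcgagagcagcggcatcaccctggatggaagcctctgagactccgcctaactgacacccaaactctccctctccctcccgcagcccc
RIMS1, window b (chr6:72212643-72212892, plus strand): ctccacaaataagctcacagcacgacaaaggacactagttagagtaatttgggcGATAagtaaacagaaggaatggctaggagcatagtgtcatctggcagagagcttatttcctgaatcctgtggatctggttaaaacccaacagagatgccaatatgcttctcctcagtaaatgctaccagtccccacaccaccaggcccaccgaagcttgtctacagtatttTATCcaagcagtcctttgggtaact
RIMS1, window c (chr6:72216271-72216520, plus strand): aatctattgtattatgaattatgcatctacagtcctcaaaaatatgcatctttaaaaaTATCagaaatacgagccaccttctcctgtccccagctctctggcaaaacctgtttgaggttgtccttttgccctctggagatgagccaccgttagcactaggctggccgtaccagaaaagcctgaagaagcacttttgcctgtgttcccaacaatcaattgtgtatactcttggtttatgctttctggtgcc
L1CAM (chrX:153875945-153876194, minus strand): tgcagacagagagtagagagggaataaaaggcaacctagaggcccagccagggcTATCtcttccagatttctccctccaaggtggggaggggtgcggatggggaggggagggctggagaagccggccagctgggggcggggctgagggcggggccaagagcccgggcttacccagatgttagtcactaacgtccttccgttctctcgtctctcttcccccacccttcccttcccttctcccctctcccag
CLSTN1 (chr1:9824527-9824776, minus strand): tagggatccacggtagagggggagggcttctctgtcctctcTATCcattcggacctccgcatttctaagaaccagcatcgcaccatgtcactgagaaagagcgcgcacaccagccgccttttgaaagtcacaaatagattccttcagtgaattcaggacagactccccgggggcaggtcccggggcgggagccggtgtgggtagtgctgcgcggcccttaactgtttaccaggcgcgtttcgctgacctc
CLSTN2 (chr3:139934935-139935184, plus strand): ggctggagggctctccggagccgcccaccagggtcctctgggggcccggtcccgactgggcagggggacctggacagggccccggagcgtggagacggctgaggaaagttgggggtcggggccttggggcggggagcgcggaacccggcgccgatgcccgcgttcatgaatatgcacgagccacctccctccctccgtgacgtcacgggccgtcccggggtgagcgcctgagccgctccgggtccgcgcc
GAD1 (chr2:170816637-170816886, plus strand): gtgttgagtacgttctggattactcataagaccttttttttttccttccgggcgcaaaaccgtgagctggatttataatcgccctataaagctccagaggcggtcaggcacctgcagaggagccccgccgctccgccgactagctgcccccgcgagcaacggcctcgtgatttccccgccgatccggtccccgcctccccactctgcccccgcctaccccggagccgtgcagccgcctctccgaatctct
The cores of RIMS1 begin 223 bases before the start in window a, 196 and 25 before it in window b and 192 before it in window c. The core of L1CAM begins 196 bases before the start shown, and that of CLSTN1 begins 209 before. The windows of RIMS3, CLSTN2, CLSTN3, GAD1 and OLFM1 held no GATA core, which says only that these letters are not in these windows. A match is a description of the sequence, and binding at these positions was not measured here.

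Reads on genes numbered from 13292861 to 19572394 per library. Values are given as normalized counts, the deposited values turned back from the log2 scale. The 8 luminal epithelial marker genes were all read, and summed per library to between 136575 and 168007 normalized counts. GATA3 had 13726 and 12676 normalized counts in the control libraries, 13555 and 13833 with wild type, 9506 and 8638 with TR1 and 10235 and 10588 with TR2. The TR1 libraries differed more from each other than other pairs did, with an SD of the log2 difference between replicates of 0.443 over the genes tested, against 0.279 to 0.331 in the other groups. In bulk RNA, fewer cells with a transcript and less transcript per cell cannot be told apart.

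Among the RIM genes, RIMS1 was highest with wild-type GATA3 and lowest with TR1. RIMS1 (ENSG00000079841, chromosome 6, 71886703 to 72403143) had 73 and 64.6 normalized counts in the control libraries, 318 and 310 with wild type, 4.85 and 9.2 with TR1 and 18.9 and 19.5 with TR2. The 4 groups did not overlap, and their order from low to high was TR1, TR2, control and wild type. Each gap between neighbours in this order exceeded the larger SD of the pair (n = 2). The wild-type mean was 4.57-fold that of the control, a log2 difference of 2.18 ± 0.27 (SE). TR1 was 9.8-fold below the control (-3.17 ± 0.27) and 44.7-fold below wild type (-5.35 ± 0.27). TR2 was 3.59-fold below the control (-1.79 ± 0.27). The TR1 mean rests on 16 reads, so its size is loose: against wild type the log2 difference was -4.95 without TR1 library 1 and -5.75 without TR1 library 2, and -4.26 with a pseudocount of 10.

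RIMS2, the other long RIM gene, showed the opposite picture, with most of its reads in the TR1 libraries. RIMS2 (ENSG00000176406, chromosome 8, 103500748 to 104256094) had 0 reads in both control libraries, 1 and 0 with wild type, 62 and 91 with TR1 and 8 and 4 with TR2. These correspond to 60.1 and 76.1 normalized counts with TR1 and 7.19 and 3.71 with TR2, and neither of these groups overlapped with another. With a floor of 3 reads per library, TR1 was at least 19.8-fold higher than the control and TR2 at least 1.59-fold higher. Against the single wild-type read, the ratio of TR1 was 132, with an exact 95% binomial counting interval from 23.3 to 5228, and TR1 was 12.5-fold above TR2 (log2 difference 3.47 ± 0.51). Wild type and control overlapped at 0. With a pseudocount of 10 in place of 1, the difference between TR1 and TR2 was 2.34. RIMS2, like GAD1, entered the set of tested genes only through the TR1 libraries, in which it was high.

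RIMS3, one of the short forms, varied little beside the long ones. RIMS3 (ENSG00000117016, chromosome 1, 40620679 to 40665657) had 507 and 518 normalized counts in the control, 479 and 475 with wild type, 359 and 343 with TR1 and 465 and 409 with TR2. The TR1 libraries were the lowest and the control libraries the highest, and no groups overlapped. TR1 was 1.46-fold below the control (log2 difference -0.55 ± 0.09). Between TR2 and wild type the gap of 39.8 was close to the larger SD of 39.3, so these neighbours did not differ clearly beyond their spread.

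RIMS4, the remaining gene of the family, is not one of the 9 and stands in the list of active zone genes, so its test over all 14881 genes is given. It had 219 and 232 normalized counts in the control, 152 and 143 with wild type, 817 and 719 with TR1 and 344 and 303 with TR2. RIMS4 rose 3.41-fold with TR1 against the control (log2 difference 1.76 ± 0.11, limma with Benjamini-Hochberg adjustment, adjusted p = 4.2e-05) and 5.21-fold against wild type (2.37 ± 0.11, adjusted p = 4.87e-06). It rose 2.2-fold with TR2 against wild type (1.13 ± 0.11, limma adjusted p = 0.000807) and was 2.37-fold higher with TR1 than with TR2 (1.24 ± 0.11, adjusted p = 0.00162). These 4 calls held in all 17 alternative settings. Wild type was lower than the control (-0.61 ± 0.11, limma adjusted p = 0.0385), a call lost in 10 of the 17 settings, with adjusted p between 0.00219 and 0.287.

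Levels per kilobase of exon allow the family members to be set beside each other. In the control libraries RIMS3 made up 59.4% and 59.1% of the RIM family's summed count per kilobase, RIMS4 35.7% and 36.7% and RIMS1 4.85% and 4.17%. With wild type, RIMS1 made up 20.7% in both libraries and RIMS4 24.3% and 23.4%. With TR1, RIMS4 took the leading place with 74.3% and 72%, RIMS2 appeared with 2.09% and 2.91%, and RIMS1 made up 0.179% and 0.375%. With TR2, RIMS4 stood at 50% in both libraries beside RIMS3 at 48.5% in both. The family sum was 118 and 121 per kilobase in the control, 120 and 117 with wild type, 211 and 192 with TR1 and 132 and 117 with TR2. Only the TR1 libraries had a sum apart from those of the other groups.

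**Figure D1:**
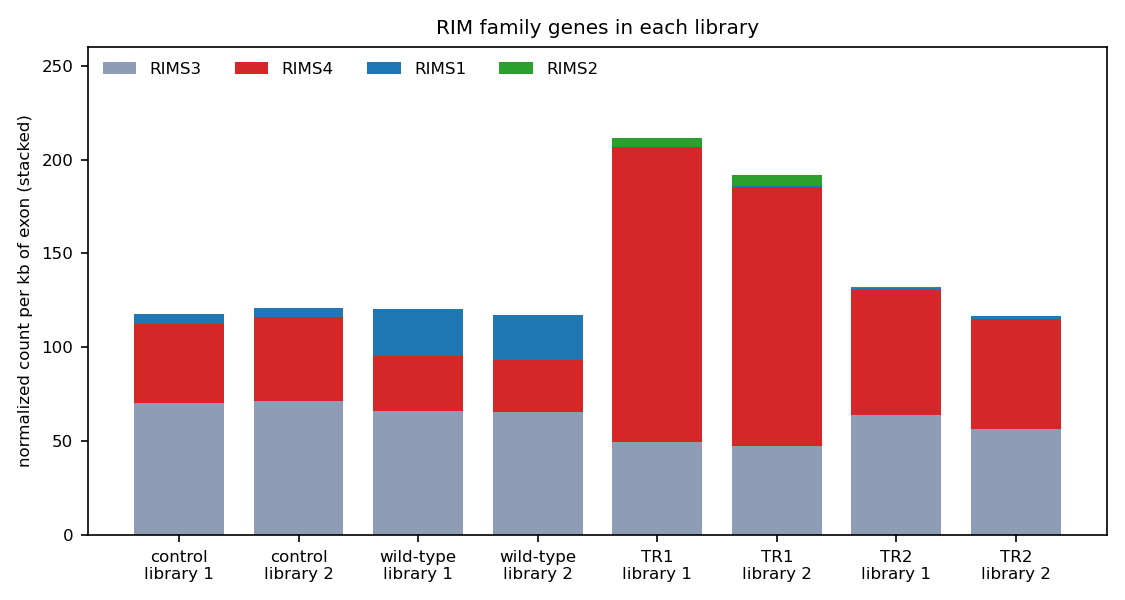
Normalized counts per kilobase of exon of the 4 RIM family genes, stacked for each of the 8 libraries. RIMS1 (blue) is largest with wild type, and the TR1 libraries reach 211 and 192 through RIMS4 (red), with RIMS2 (green) on top.

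The calsyntenins split into a gene with a large difference and others with small ones. CLSTN2 (ENSG00000158258, chromosome 3, 139935185 to 140577397) had 11.8 and 7.31 normalized counts in the control, 100 and 99.3 with wild type, 14.5 and 18.4 with TR1 and 11.7 and 8.35 with TR2. The wild-type libraries stood far above all others, and control and TR2 overlapped. Against the control the wild-type mean was 10.4-fold higher (log2 difference 3.29 ± 0.30), and against wild type TR1 was 6.05-fold lower (-2.54 ± 0.30) and TR2 9.96-fold lower (-3.21 ± 0.30). With a pseudocount of 10 these 3 differences were 2.50, -2.06 and -2.46. The smaller difference of TR1 from the control, 0.75 ± 0.30, was 1.06 without control library 1 and 0.44 without control library 2. The difference of TR2 from the control, 0.08 ± 0.30, took either sign, being 0.39 without control library 1 and -0.23 without control library 2. CLSTN2-AS1 lies on the opposite strand of this gene and shares no exonic base with it. The antisense genes AC010181.1 and AC010181.2 also overlap it, but shared exonic bases were not read for genes absent from the deposited table. Such genes include the protein-coding U52112.1, on the strand of L1CAM, and AC012213.5, opposite RIMS2.

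CLSTN3 (ENSG00000139182, chromosome 12, 7129698 to 7158945) was highest with TR1, at 838 and 781 normalized counts, against 675 and 652 in the control, 533 and 565 with wild type and 624 and 598 with TR2. The groups did not overlap, and the largest contrast was 1.47-fold between TR1 and wild type (log2 difference 0.56 ± 0.08). Against the control, TR1 was 1.22-fold higher (0.28 ± 0.08) and wild type 1.21-fold lower (-0.27 ± 0.08). CLSTN1 (ENSG00000171603, chromosome 1, 9729026 to 9824526), the most abundant member per kilobase, had 3423 and 3205 in the control, 3009 and 3173 with wild type, 2816 and 2613 with TR1 and 2804 and 2801 with TR2. It was 1.22-fold lower with TR1 than with the control (-0.29 ± 0.07), while TR1 and TR2 overlapped and their difference of -0.05 ± 0.07 lay between -0.10 and 0.01 over the settings. CLSTN1 shares 89 exonic bases with PIK3CD on the opposite strand, and the strand setting of the counting is not given in the sources used here.

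Per kilobase, CLSTN1 dominated its family in every library, from 80.1% to 86.3% of the summed level. CLSTN3 made up 14% and 14.3% in the control, 12.6% and 12.7% with wild type, 19.6% and 19.7% with TR1 and 15.5% and 14.9% with TR2. CLSTN2, despite its large fold, made up 1.12% and 1.05% with wild type and at most 0.22% in any other library.

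L1CAM followed the order of RIMS1 with smaller steps. L1CAM (ENSG00000198910, chromosome X, 153861514 to 153886174) had 318 and 332 normalized counts in the control, 473 and 453 with wild type, 124 and 125 with TR1 and 224 and 228 with TR2. No groups overlapped, and every gap between neighbours was several times the larger SD, the widest SD being 14.1 with wild type. Wild type was 1.43-fold above the control (log2 difference 0.51 ± 0.10), TR1 2.6-fold below it (-1.37 ± 0.10) and TR2 1.44-fold below it (-0.52 ± 0.10). TR1 was also 1.81-fold below TR2 (-0.85 ± 0.10). Over the alternative settings the difference of TR1 from the control stayed between -1.46 and -1.31.

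OLFM1 (ENSG00000130558, chromosome 9, 135075422 to 135121179) was abundant in all libraries and highest with wild type. It had 1886 and 2147 normalized counts in the control, 3288 and 3197 with wild type, 1709 and 1540 with TR1 and 1901 and 1847 with TR2. The wild-type libraries were above all others, whereas TR2 and control overlapped. Wild type was 1.61-fold above the control (log2 difference 0.69 ± 0.08), and TR1 was 1.24-fold below it (-0.31 ± 0.08). The latter difference was -0.40 without control library 1 and -0.22 without control library 2.

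GAD1 (ENSG00000128683, chromosome 2, 170813213 to 170861151) was the member with the fewest reads, and most of them came from TR1. Its reads numbered 3 and 4 in the control libraries, 0 and 0 with wild type, 24 and 32 with TR1 and 4 and 6 with TR2. In normalized counts TR1 had 23.3 and 26.8, above every other library, the next highest being 5.57. TR1 was 6.18-fold above the control (log2 difference 2.38 ± 0.43) and 5.46-fold above TR2 (2.24 ± 0.43), and with a floor of 3 reads per library it was at least 7.93-fold higher than wild type. With a pseudocount of 10 the log2 differences of TR1 were 1.32 from the control and 1.27 from TR2. Control and TR2 overlapped. GAD1 was thus high in the same group as RIMS2, and both were at or near 0 with wild type.

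**Figure D2:**
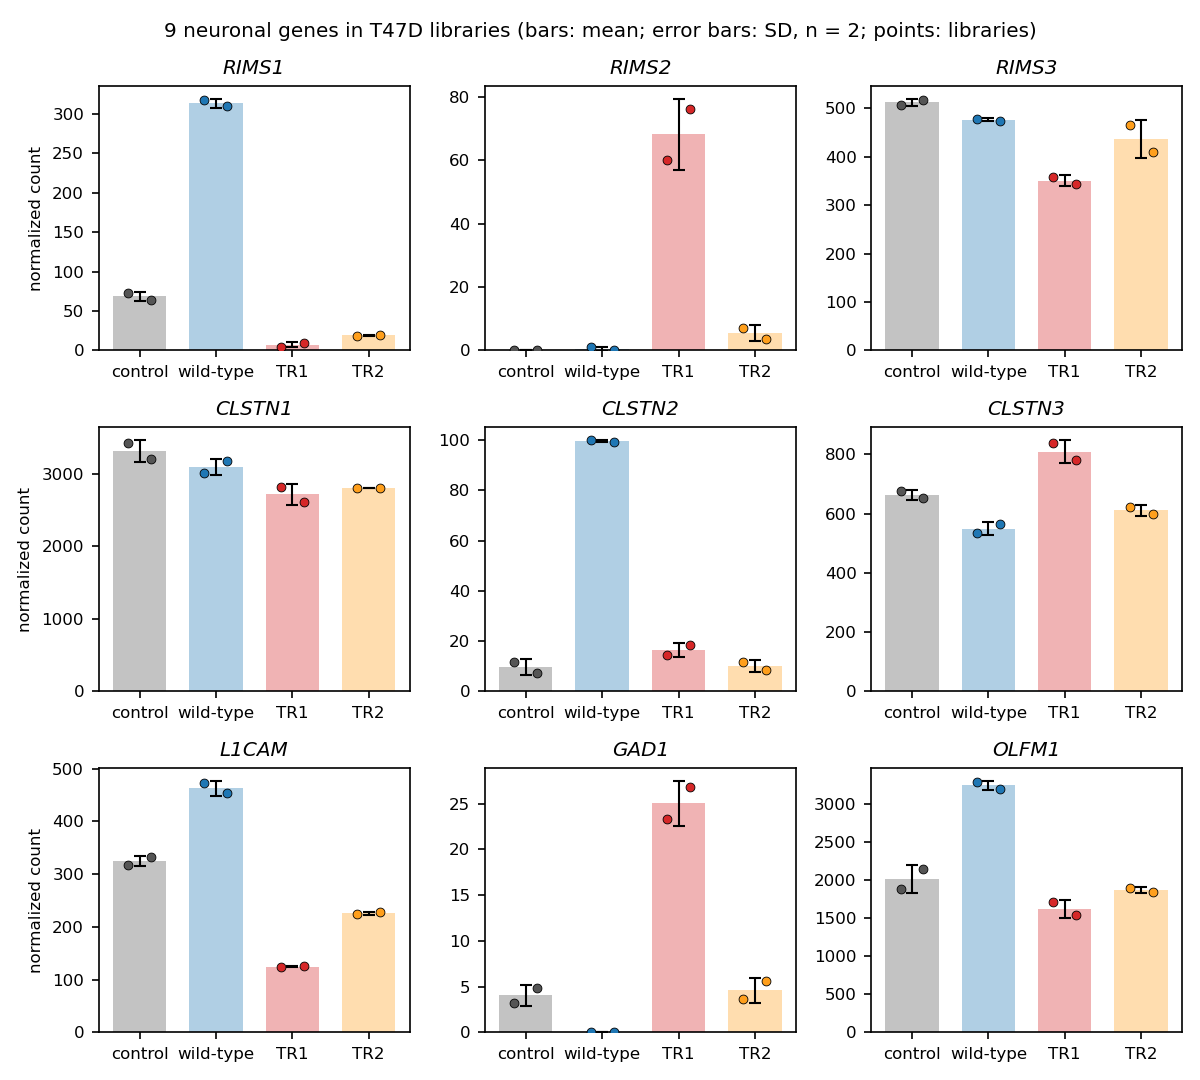
Normalized counts of the 9 members, one panel each with its own linear axis from 0. Bars are means, error bars SD over the 2 libraries of a group and points the libraries; RIMS1 and CLSTN2 peak with wild type, RIMS2 and GAD1 with TR1.

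**Figure D3:**
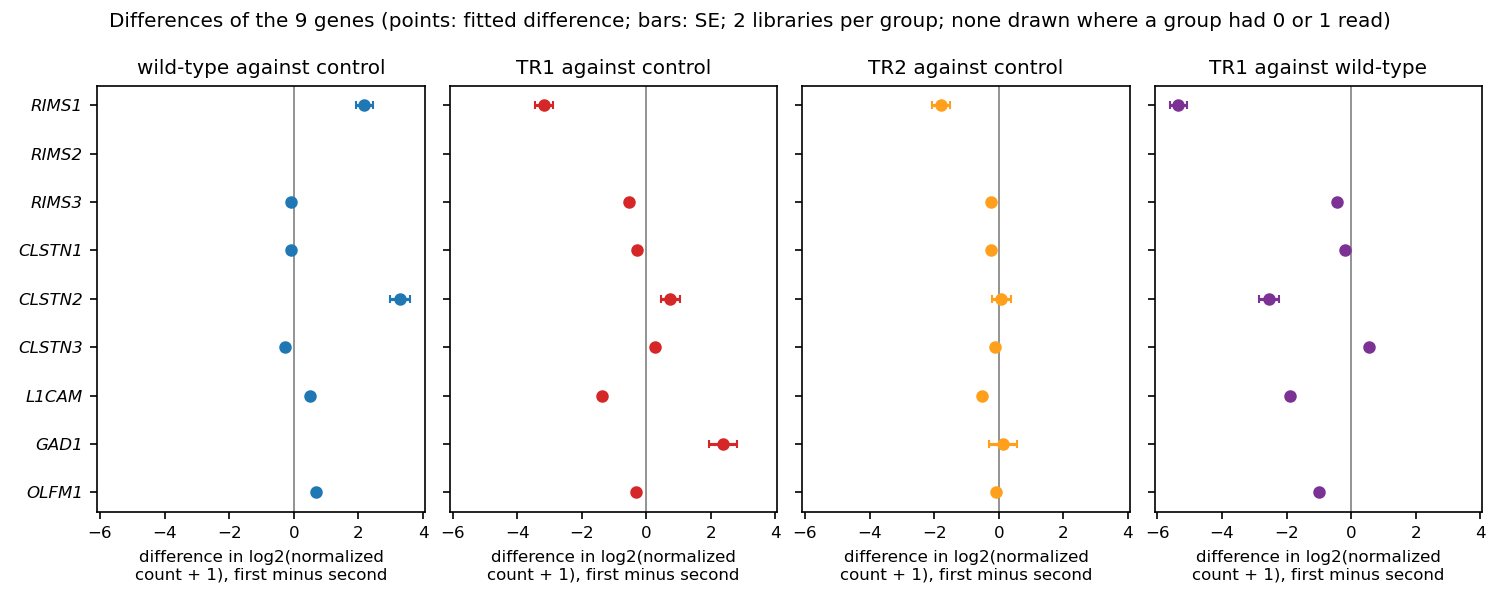
Fitted differences of the members in log2(normalized count + 1) with SE, for wild type, TR1 and TR2 against the control and TR1 against wild type. RIMS1 lies at 2.18, -3.17, -1.79 and -5.35 in the 4 panels; no point is drawn where a group had 0 or 1 read, and panels that share a group are not independent.

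Per kilobase and averaged over the 8 libraries, the members spanned a wide range of levels. Among 12865 tested genes with a length, 89.1% had a lower level than CLSTN1, 83.5% than OLFM1, 54.3% than CLSTN3, 43.9% than RIMS3 and 34.2% than L1CAM. For RIMS1 this share was 11.5%, for CLSTN2 3.08%, for RIMS2 1.21% and for GAD1 0.614%. The members with the largest fold differences were thus those with low levels.

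For each member, the genes with the most similar profile were found as those with the smallest root mean square (RMS) difference in log2 values, each gene centred on its own mean over the 8 libraries. They were picked from 14872 candidates for this likeness, so a shared group order follows from the choice. RIMS1 was closest to ADAMTS15 (RMS 0.44), TMTC1 (0.46) and the cadherin gene CDH7 (0.48). TMTC1 had 646 and 645 normalized counts in the control, 1399 and 1365 with wild type, 44.6 and 46 with TR1 and 154 and 165 with TR2, which is the order of RIMS1 at higher counts. CLSTN2 was closest to PRR15 (0.48), BOC (0.53) and the adhesion gene ALCAM (0.53). L1CAM was very close to SNCG, which encodes gamma-synuclein (RMS 0.08), and to OLFML3 (0.12) and the carbonic anhydrase-related gene CA8 (0.12). SNCG had 859 and 801 in the control, 1213 and 1249 with wild type, 344 and 299 with TR1 and 591 and 589 with TR2.

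The genes nearest to OLFM1 were TMEM40 (RMS 0.08), MB21D2 (0.09) and ALDH3B2 (0.10). GAD1 was nearest to C3orf70 (0.37), the transglutaminase gene TGM2 (0.41) and GRM4 (0.44), a metabotropic glutamate receptor gene, which had 20.4 and 24.4 in the control, 10.6 and 5.71 with wild type, 155 and 162 with TR1 and 19.8 and 27.8 with TR2. RIMS2 was nearest to DCN (0.46), ZMAT4 (0.66) and the Wnt antagonist gene SFRP1 (0.70). SFRP1 had 0 and 1.22 in the control, 0 and 0 with wild type, 123 and 107 with TR1 and 4.49 and 2.78 with TR2. RIMS3, CLSTN1 and CLSTN3 spread least about their own means among the members, with RMS values of 0.21, 0.12 and 0.21. Their neighbours lay within an RMS of 0.05. These were PPT1, GSTM4 and EPHB6 for RIMS3, MPRIP, GATAD2B and TCF3 for CLSTN1, and CNIH2 and SERPINH1 among others for CLSTN3.

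**Figure D4:**
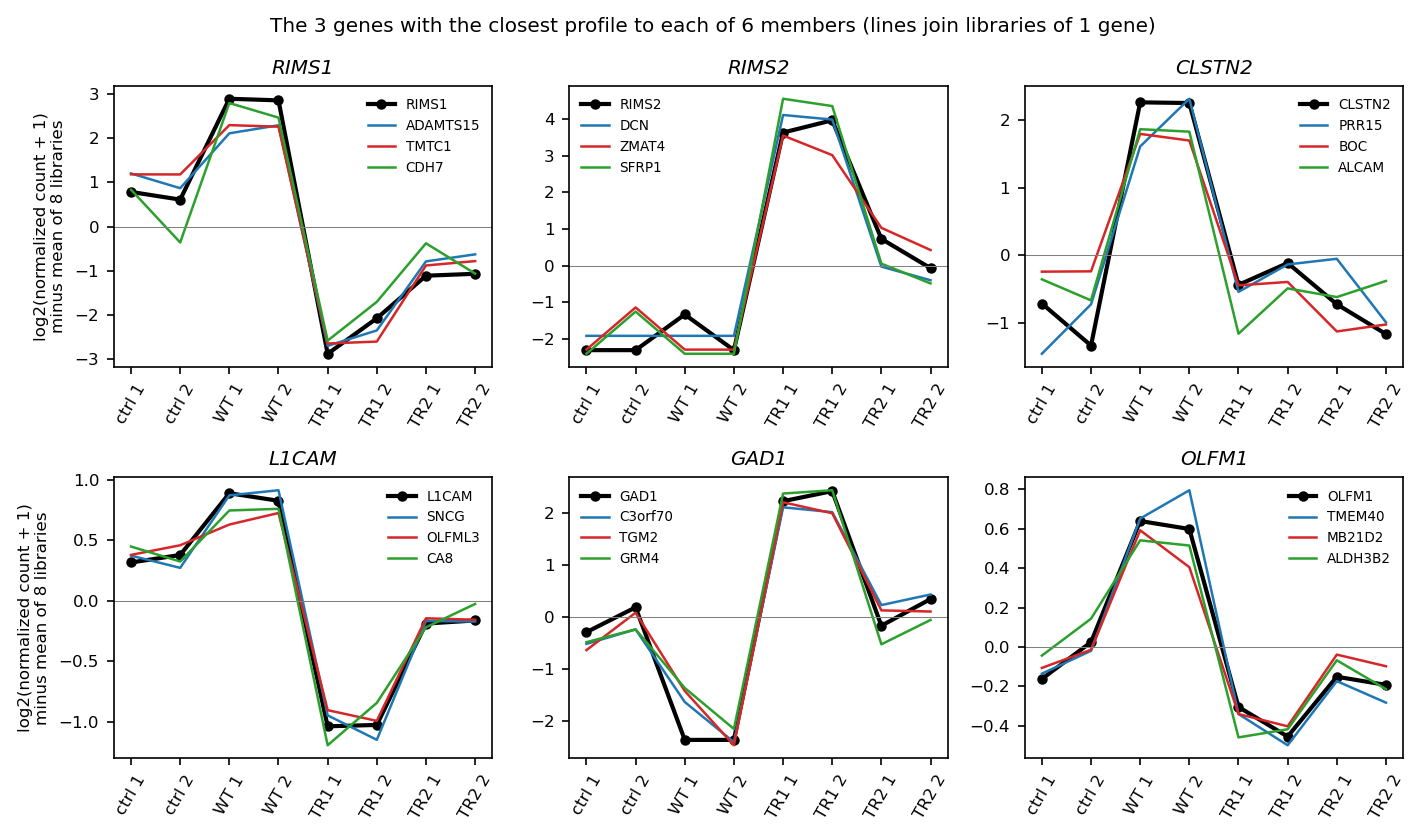
Profiles of 6 members (black) and of the 3 genes closest to each, as log2(normalized count + 1) minus the gene's mean over the 8 libraries. Each closest gene shares the group in which its member is highest, such as TR1 for RIMS2, DCN, ZMAT4 and SFRP1, which follows from choosing these genes by profile.

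DCN, which encodes decorin, is a fibroblast marker, so the fibroblast markers are given beside RIMS2 and GAD1. The 5 of 6 list genes matched in the table summed to 101 and 104 normalized counts with TR1 and to between 10.2 and 24 in the other libraries. DCN had 64 and 58.6 with TR1, at most 2.7 with TR2 and 0 elsewhere. LUM had 7.76 in one TR1 library, 27.6 in the other and 0 elsewhere, while the collagen gene COL1A2 had 0 reads in all 8 libraries. THY1 had means of 18.73 in the control, 21.62 with wild type, 21.1 with TR1 and 9.54 with TR2, and PDGFRB at most 2.51 in a library, so the higher sum with TR1 came from DCN and LUM. The 5 matched glial and Schwann cell markers summed to 64.4 and 66.9 with TR1 and to between 40.2 and 50.2 elsewhere. Leukocyte markers had at most 3 reads of a gene in a library and endothelial markers at most 8. The part of other cells in the member values was not tested.

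Defining markers of neurons and neuroendocrine cells were checked because the members are known from such cells. Of 26 list genes, 14 were matched in the table and 4 passed the filter. CHGA, SCG2 and ELAVL3 had 0 reads in all libraries, and RBFOX3, ELAVL2, ELAVL4, GAP43, INSM1 and SCG5 never exceeded 9 reads. The 4 tested genes were TUBB3, MAP2, MAPT and ENO2, which encode cytoskeletal proteins and the enolase of neurons. With TR1, 1 of the 4 rose and none fell against the control, and 1 rose and 2 fell against wild type, the latter 3 calls becoming 0 without wild-type library 2. MAPT, which encodes the tau protein, had 141 and 127 normalized counts in the control, 314 and 326 with wild type, 313 and 259 with TR1 and 120 and 125 with TR2. MAPT rose 2.39-fold with wild type (limma adjusted p = 0.00248) and 2.14-fold with TR1 (limma adjusted p = 0.00129) against the control, calls that held in all 17 settings. TUBB3 rose with TR1 against wild type, from 4.602 ± 1.67 to 19.58 ± 5.21 normalized counts (limma adjusted p = 0.00883), which was lost without wild-type library 2.

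The other genes of the members' pathways came from 8 lists drawn up with earlier results of these data known, of which 94 genes passed the filter. With TR1 against the control, 9 of the 94 rose and 10 fell, that is 9.57% and 10.6%, where 4.91% of all 14881 tested genes were called higher and 5.69% lower. With TR1 against wild type, 14 rose and 16 fell, against 7.6% and 7.38% of all genes. With TR2 against wild type, 7 rose and 11 fell, against 2.75% and 2.49%. With wild type against the control, 4 rose and 3 fell, against 0.685% and 1%. With TR2 against the control, 1 rose and 3 fell, against 0.524% and 0.396%, and between TR1 and TR2, 3 were higher with TR1 and 1 lower, against 0.632% and 0.585%. The medians over the 94 genes lay between -0.11 and 0.05 on the log2 scale, beside -0.01 to 0.02 over all genes tested.

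These counts depended on single libraries, and the calls over all genes tested rose or fell along with them in each setting named here. Leaving out TR1 library 1 or 2 gave 30 and 28 calls in place of 7 for wild type against the control, 29 and 29 in place of 4 for TR2 against the control, 36 and 36 in place of 18 for TR2 against wild type and 15 and 17 in place of 4 for TR1 against TR2. For TR1 against the control it gave 38 without TR1 library 1, and 11 without control library 2, in place of 19. For TR1 against wild type the 30 calls became 45 without TR1 library 2, 18 without wild-type library 1 and 17 without wild-type library 2. With TR2 against wild type, the count was 7 to 9 without any single wild-type or TR2 library. With TR1 against TR2, median centring gave 3 higher and 2 lower and quantile normalization 4 higher and 3 lower. Over all genes, the share of higher calls for TR2 against the control was 56.9%, and 43.9% with median centring. The genes named below from the lists were chosen after their values were seen, mostly for calls that held in every setting.

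Of 27 tested active zone and vesicle release genes, 2 rose and 2 fell with TR1 against the control and 4 rose and 4 fell against wild type. For this list, the neuronal markers above and the lists below, the TR1 shares over all genes stand beside the counts. They were 4.91% higher and 5.69% lower against the control, and 7.6% and 7.38% against wild type. Whether single lists differ from these shares was not tested. Beside RIMS4, UNC13D, a Munc13 relative that primes granules outside neurons, rose with TR1 from 1387 ± 10.3 to 2033 ± 182 normalized counts (log2 difference 0.55 ± 0.08, limma adjusted p = 0.00437). RAB3B, which encodes a Rab3 form that RIM proteins can bind, rose from 18.82 ± 8.9 with wild type to 79.23 ± 21 with TR1 (2.07 ± 0.32, limma adjusted p = 0.0035). RAB3D fell in the same comparison from 1706 ± 3.69 to 1272 ± 34 (-0.42 ± 0.07, limma adjusted p = 0.00347). These calls held in every setting that tested them. The counts of calls in this list ranged from 2 without control library 2 to 9 without TR1 library 1 for TR1 against the control, and from 4 without wild-type library 2 to 12 without TR1 library 2 against wild type.

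Calcium channel subunits, which long RIM proteins place at release sites, gave 2 falls and no rise among 7 tested genes with TR1 against the control, and 1 rise and 2 falls against wild type. CACNA1D, the pore of a voltage-gated channel, had 87 and 76.8 normalized counts in the control, 201 and 203 with wild type, 36.8 and 34.3 with TR1 and 58.4 and 72.4 with TR2. This is the group order of RIMS1, but not every step passed the threshold. TR2 against the control (log2 difference -0.33 ± 0.17, limma adjusted p = 0.335) and TR1 against TR2 (-0.85 ± 0.17, adjusted p = 0.0546) did not. CACNA1D fell 2.3-fold with TR1 against the control (log2 difference -1.18 ± 0.17, limma adjusted p = 0.00311) and 5.69-fold against wild type (-2.48 ± 0.17, adjusted p = 3.17e-05), in all 17 settings. Wild type was 2.47-fold above the control (1.30 ± 0.17, limma adjusted p = 0.00719), a call lost without any 1 of the control or wild-type libraries. CACNA2D2, an auxiliary subunit, fell 2.07-fold with TR1 against the control (limma adjusted p = 0.00291), and CACNB3 rose 1.43-fold with TR1 against wild type (limma adjusted p = 0.00114). The list's 2 calls became 4 without TR1 library 1.

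Among 21 tested calsyntenin partners and synaptic organizers, 1 rose and 1 fell with TR1 against the control, and 1 rose and 3 fell against wild type. NLGN1, which encodes the neurexin-binding protein neuroligin-1, had 4.3 and 8.53 normalized counts in the control, 30.8 and 34.2 with wild type, 1.94 and 5.02 with TR1 and 9.89 and 9.28 with TR2. Like CLSTN2 it was highest with wild type, and it fell 9.35-fold with TR1 against wild type (log2 difference -2.99 ± 0.44, limma adjusted p = 0.0026). NLGN1 passed the filter only through the wild-type libraries in which it was high, so this p is no independent support. APBB2, an adaptor of the amyloid precursor protein, fell from 632.2 ± 59.7 in the control to 333.6 ± 19.2 with TR1 (-0.92 ± 0.11, limma adjusted p = 0.00154). Both calls held in every setting that tested them. The list's 2 calls against the control became 5 without TR1 library 1 and 1 without control library 2, and its 4 calls against wild type became 8 without TR1 library 2 and 2 without wild-type library 2.

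Of 12 tested genes of the L1 family and of neural immunoglobulin adhesion, 2 rose and 1 fell with TR1 against the control, and 4 rose and 1 fell against wild type. ALCAM, an adhesion molecule with immunoglobulin domains like L1CAM, had 179 and 144 normalized counts in the control, 840 and 819 with wild type, 102 and 163 with TR1 and 149 and 176 with TR2. ALCAM rose 5.14-fold with wild type against the control (log2 difference 2.36 ± 0.21, limma adjusted p = 0.00122) and was 6.26-fold lower with TR1 than with wild type (-2.68 ± 0.21, adjusted p = 8.31e-05), in all 17 settings. MCAM, another adhesion molecule of this family, fell 2.54-fold with TR1 against the control (limma adjusted p = 0.00264). ANK2, an ankyrin of the kind that anchors L1CAM to the cytoskeleton, rose 3.9-fold with TR1 against wild type (limma adjusted p = 0.000579). CNTN3, a contactin gene, rose with TR1 from 6.269 ± 0.246 in the control to 32 ± 15.1 (limma adjusted p = 0.00761), with TR1 values of 21.3 and 42.7. CNTN3 passed the filter only through the TR1 and TR2 libraries, in which it was high, so this p is no independent support. The list's 3 calls against the control became 5 without TR1 library 1, and its 5 calls against wild type became 9 without TR1 library 2 and 3 without wild-type library 1.

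Among 12 tested genes of GABA synthesis, transport and reception, 2 rose and 1 fell with TR1 against the control, and 2 rose and 3 fell against wild type. GABRQ, the theta subunit of the GABA-A receptor, had 101 and 101 normalized counts in the control, 54.9 and 58.2 with wild type, 1571 and 1447 with TR1 and 481 and 490 with TR2. GABRQ rose 14.9-fold with TR1 (log2 difference 3.89 ± 0.10, limma adjusted p = 1.74e-07) and 4.8-fold with TR2 (2.25 ± 0.10, adjusted p = 4.75e-05) against the control, in all 17 settings, and TR1 was 3.11-fold above TR2 (1.63 ± 0.10, adjusted p = 0.000188). Like GAD1, it was lowest with wild type and highest with TR1. The list's 3 calls against the control became 7 without TR1 library 1 and 1 without control library 1, and its 5 calls against wild type became 8 without TR1 library 1 and 2 without wild-type library 1.

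The list for the olfactomedin family, to which OLFM1 belongs, had 4 tested genes, OLFM2, OLFML2A, OLFML3 and the Nogo receptor gene RTN4R, which is not of the family. With TR1 against the control 3 of them fell and none rose, RTN4R being the gene that did not pass. With TR1 against wild type 1 of them, OLFML3, fell and none rose. OLFML3 had 1022 and 1080 normalized counts in the control, 1216 and 1299 with wild type, 420 and 395 with TR1 and 711 and 705 with TR2. It fell 2.58-fold with TR1 against the control (log2 difference -1.37 ± 0.08, limma adjusted p = 2.49e-05) and 1.78-fold with TR2 against wild type (-0.83 ± 0.08, adjusted p = 0.000628), in all 17 settings. OLFML2A fell 1.52-fold with TR1 against the control (limma adjusted p = 0.00323), and the call of OLFM2 (adjusted p = 0.0429) was lost in 10 of 17 settings. Of 7 tested genes of the REST repressor and its cofactors, which silence neuronal genes outside neurons, RCOR2 alone passed with TR1 against the control. It was 1.64-fold higher (limma adjusted p = 0.00861), and did not pass when control library 2 was left out, while 3 genes passed without TR1 library 1.

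**Figure D5:**
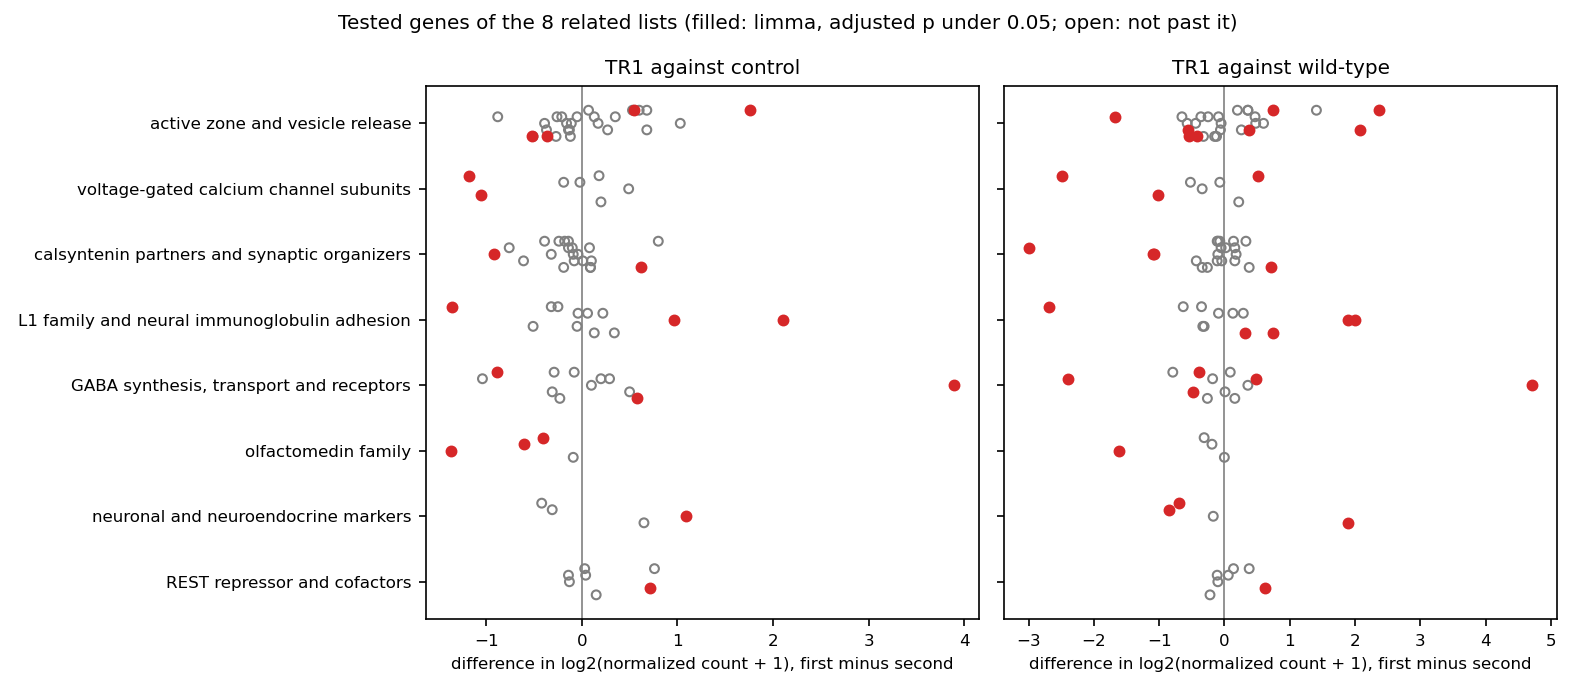
Log2 differences of the 94 tested genes in the 8 related lists for TR1 against the control and TR1 against wild type; each point is a gene, filled where limma's adjusted p was under 0.05. Filled points lie on both sides of 0 in 4 of the 8 lists against the control and in 6 of them against wild type, with GABRQ farthest to the right at 3.89 and 4.71.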

How the data were processed

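Total RNA of 8 T47D libraries, 2 for each of 4 plasmid groups, was made into strand-specific libraries, per the labels' protocols. Per the submitters' processing notes, TopHat and HTSeq were used with hg38, with no version given, and the annotation and strand setting are not given in the sources used here. The table holds 28859 symbols with values that the authors deposited as log2(normalized count + 1). Turned back to the linear scale, 100% of values were whole multiples (within 0.01) of the value of 1 read in their library, which gave the reads. A gene was tested if 2 or more libraries had a normalized count of 10 or more, and 14881 genes entered 1 fit on log2(value + 1) in limma 3.58.1 (R 4.3.3) with group as the only term, 4 residual and 4.69 prior degrees of freedom and a trended prior. Tests were two-sided with Benjamini-Hochberg adjustment over all tested genes in a comparison and a threshold of 0.05. Where replicates were not separate cultures, p-values measure only the spread between these samples. Fold changes are ratios of mean normalized counts, and log2 differences understate the change of low genes. Intervals and floors of 3 reads cover counting error only.

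The members and lists were chosen with earlier results of these data known, and members get no p-value. Named genes were the members, GATA3, up to 4 called genes with the largest difference per list and comparison, and the 3 nearest profiles per member; part of them is given, and a few are not reported here. Exonic lengths and coordinates came from GENCODE 29 (GRCh38), in which 19976 symbols matched, and promoters from RefSeq. The fit was tested on simulated data. Alternatives were other filters, a pseudocount of 10, other scalings, no trend, only the 2 groups compared, a replicate block, each library left out and, chosen after seeing the data, voom weights on the reads.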

Additional observations from a re-analysis of the deposited data

How the results depend on the processing

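Under the alternatives, 847 of 900 values of the member differences moved by no more than 1 SE and 53 moved further. A sign changed, or came to 0, for 4 differences, each smaller than its SE: CLSTN2 and GAD1 with TR2 against the control, RIMS2 with wild type against the control and CLSTN1 between TR1 and TR2. Of 1330 alternative values for 79 calls of named genes, 1116 kept the call, 214 lost it and 0 reversed. With only the 2 groups compared, calls over all genes tested went from 251 to 1313 for wild type against the control. They went from 1578 to 483 for TR1 and from 137 to 2115 for TR2 against the control, and from 780 to 2971 for TR2 against wild type. The number of list genes called moved, in the same direction as calls over all genes, by over 1.5 times in these cases. For wild type against the control it was 7, and 4 with no trend, no filter or voom weights, 26 with only these groups and 2 to 30 with a library left out. For TR1 against the control it was 19, then 12 with only these groups and 11 to 38 with a library left out. For TR2 against the control it was 4, then 1 with no trend, 2 with no filter, 20 with only these groups and 1 to 29 with a library left out. For TR1 against wild type it was 30, and 17 to 45 with a library left out. For TR2 against wild type it was 18, then 42 with only these groups and 7 to 36 with a library left out. For TR1 against TR2 it was 4, then 7 with quantile normalization and 2 to 17 with a library left out.

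With the replicate number as a block, the 6 counts in this order were 5, 17, 2, 28, 15 and 4. The labels do not say that equal numbers pair libraries, and the correlation of deviations between groups lay between -0.0898 and 0.148. The planned count models were not run on the reads recovered from the deposited log2 values. Voom weights on those reads were used in their place. Where a left-out library leaves a group with 1, that library is assumed to vary like the other groups. Groups of 2 limit every SD, and RIMS2, GAD1, CLSTN2 and RIMS1 with TR1 rest on few reads. The promoter match fell from 6 windows to 2 with flanking bases required.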
